A study of Mus musculus with 4 samples.

Results

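The genes of voltage-gated and potassium channel subunits were followed across the cells of the main olfactory epithelium, where the neurons that detect odours sit among supporting and stem cells. Every gene whose symbol begins with Kcn, Cacn, or Scn or Hcn and a digit was taken, which gave 138 of the 22399 genes listed. The rule uses symbols alone, but it was set with earlier results of these data known. The data are 4 droplet libraries of single cells freed with papain, 2 from female and 2 from male mice, each counted as 1 replicate. All mice were wild type, of strain C57BL/6J and 3 months old, with no transgene and no treatment named in the labels. Nothing in the labels says how many mice went into a library, so each p-value measures the spread between these 4 libraries.

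These channels open on a change of voltage, on calcium, or on nucleotides and G proteins, and so set how a neuron rests, fires and releases transmitter. Pore-forming subunits carry the current, and accessory subunits shift gating and bring the pore to the membrane. In olfactory sensory neurons the odour signal opens a cyclic nucleotide channel, a calcium-gated chloride current amplifies it, and sodium channels turn it into spikes that travel along the axon. Each mature neuron transcribes mainly 1 odorant receptor gene.

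A UMI stands for 1 captured RNA molecule, and levels are given as CPM, UMIs per 1000000 UMIs of all genes in the sum of a class of cells in a library. Reads came from the 5′ end of transcripts, so CPM counts molecules and is not scaled by transcript length. Cells were classed by marker UMIs: Krt5 for horizontal basal cells, Neurod1 for neuronal precursors, Gap43 for immature neurons, Gap43 with Omp for maturing neurons, Omp alone for mature neurons, Cyp2g1 for sustentacular (supporting) cells, and Ascl3 and Trpm5 for rare cells. The classes held 1245, 829, 1820, 941, 17707, 6600, 121 and 121 barcodes in this order. Library depth lay between 100725429 and 111577458 UMIs, and 72.8% to 74.9% of the kept barcodes of a library fell into a class. Among the lists of other markers several genes were high outside their class. Cbr2 of the sustentacular list stood at 7365 CPM in the Krt5 class and above 2000 CPM in the Ascl3 and Trpm5 classes, Nrep of the immature list was highest in the Neurod1 class (363 CPM), Dcn of the fibroblast list reached 1001 CPM in the Cyp2g1 class and Foxj1 of the ciliated list 261 CPM in the Omp class. Cd74 of the macrophage list stood at 646 CPM in the Krt5 class, Lyz2 of the macrophage list at 4406 CPM in the Ascl3 class, and Gng13 of the tuft cell list at 4532 CPM in the Omp class, while Moxd2 of the ionocyte list was at 0 in the Ascl3 class. Omp itself had 154 CPM in the Krt5 class, and shares of barcodes with a UMI are therefore given beside those of a class that should lack the gene. Pairs of libraries shared between 126 and 149 cell barcode sequences. Doublets were scored but not removed, and the score marked 17.0% of the Gap43 Omp class, 6.25% of the Omp class and at most 3.82% of any other class. In summed data, fewer cells of a kind and less RNA per cell cannot be told apart.

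Of the 138 channel genes, 80 reached 5 CPM in at least 1 class and 46 reached 50 CPM, while 34 stayed under 1 CPM in every class and 5 had no UMI in any gated barcode. The 5 were Kcnk15, Cacng6, Kcng4, Kcnk16 and Kcne1. All 4 Cacnb genes reached 5 CPM, against 22 of 30 pore-forming Kv genes, 8 of 15 inward rectifier genes, 6 of 10 pore-forming sodium channel genes and 1 of 8 Cacng genes. The summed level of all channel genes was higher at each later stage of the neuronal line. It was 1392 CPM in precursors, 2528 CPM in immature, 3764 CPM in maturing and 5186 CPM in mature neurons (means of 4 libraries). The 4 mature values lay between 5115 and 5270 CPM, above the 4 immature values of 2482 to 2598 CPM. Outside the neurons the sum was 653 CPM in the Krt5 class, 1224 CPM in the Cyp2g1 class, 1536 CPM in the Ascl3 class and 1146 CPM in the Trpm5 class. In mature neurons the highest channel levels were those of Scn9a, which encodes the sodium channel Nav1.7, with 633 ± 30.3 CPM, Cacnb3 with 479 ± 11.9 CPM, Kcnc4 with 359 ± 8.27 CPM and Hcn2 with 303 ± 11.7 CPM (SD, n = 4).

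**Figure D1:**
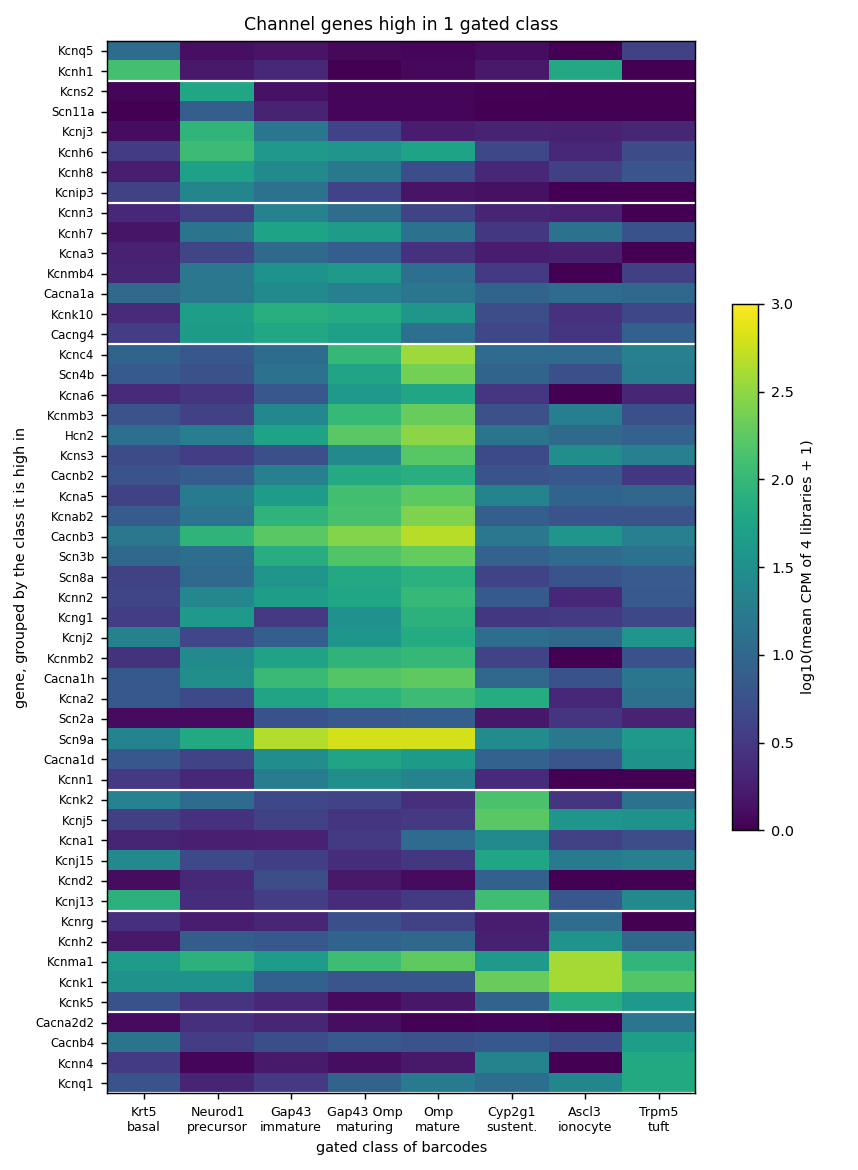
Mean level of 52 channel genes, as log10 of CPM plus 1 (colour), in the 8 gated classes (columns). Rows are those genes described in the text that were higher in a class than in each of 6 others, grouped by that class. The mature neuron block is the largest, and most of its genes are already raised in the Gap43 Omp column.

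The first comparison asked which channel genes differ between immature and mature neurons. Mature neurons had more of most Kv, calcium-activated, Hcn and sodium channel transcripts, and less of a smaller set that included Kcnip3, Kcnj3, Cacna1e and Kcnq3. Of the 71 channel genes with enough counts for edgeR's quasi-likelihood test, 38 were higher (53.5%) and 23 lower (32.4%) at an adjusted p under 0.05. Among all 12660 genes tested the shares were 37.3% higher and 37.7% lower. The median log2 fold change was 0.57 over the channel genes and 0.00 over all genes. All 4 mature values lay above all 4 immature values in CPM for 35 channel genes, and below them for 25. The same count was not made over all genes, so these counts do not set channel genes apart. Without TMM scaling, which sets the median of all genes near 0, that median was -0.23, the split of all genes was 3547 higher to 6229 lower, and that of the channel genes was 33 to 26.

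**Figure D2:**
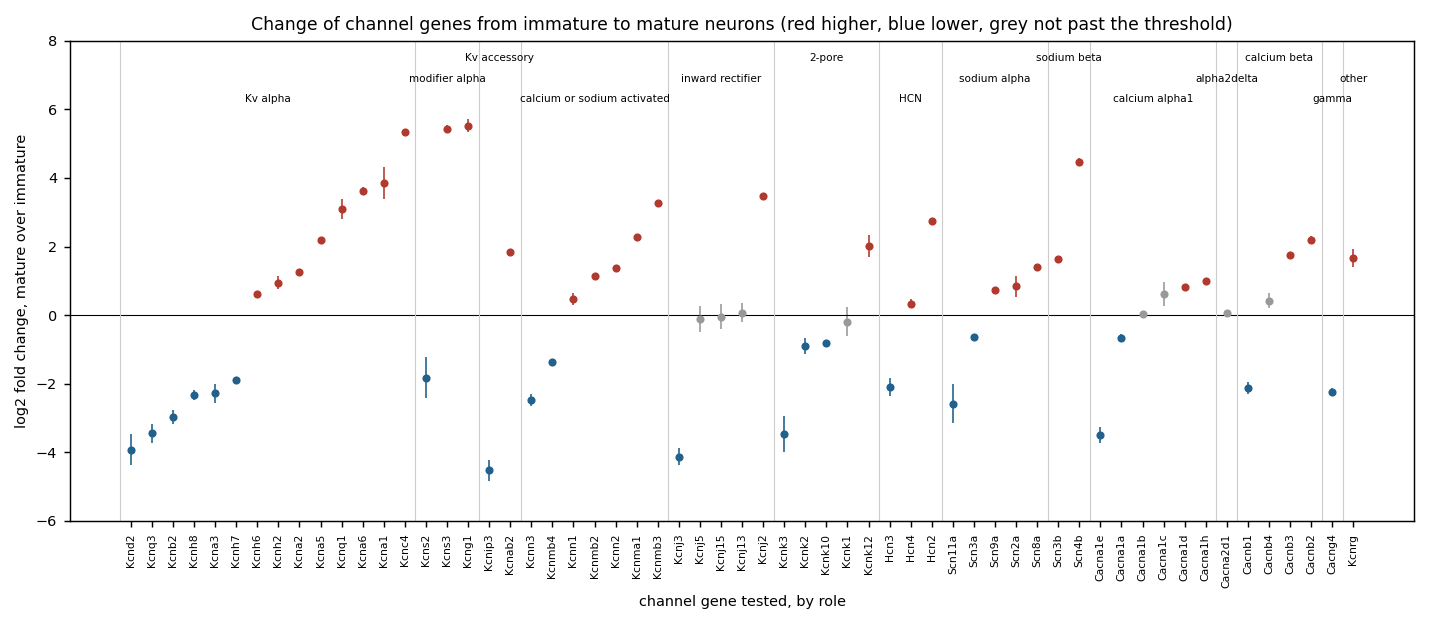
Log2 fold change of mature over immature neurons (points, with SE) for 59 of the 71 channel genes tested, those named in the text, ordered by role along the horizontal axis. Red points passed the threshold upward (30), blue points downward (21), and grey points did not pass. Kcng1, Kcns3 and Kcnc4 lie highest and Kcnip3 and Kcnj3 lowest.

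Among the 20 pore-forming Kv genes tested, 12 were higher and 7 lower in mature neurons. Kcnc4 encodes a fast delayed rectifier of the Kv3 family. It had 347, 363, 362 and 365 CPM in the mature neurons of female 1, female 2, male 1 and male 2, and 9.36, 9.84, 10.0 and 12.7 CPM in the immature neurons. The groups did not overlap, and the log2 fold change was 5.34 ± 0.06 (SE), with an adjusted p of 1.72e-16 in edgeR. At least 1 Kcnc4 UMI was seen in 90.4% of mature and 9.45% of immature barcodes, against 10.7% of Cyp2g1 barcodes, whose median depth per library was 13139 to 13643 UMIs where that of mature neurons was 7788 to 8527. With every barcode thinned to 2000 UMIs, which left out 332 mature, 2 immature and 129 Cyp2g1 barcodes, the Kcnc4 shares were 52.3%, 2.37% and 2.23%. The immature share of Kcnc4 was thus near that of the Cyp2g1 class.

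Kcna6 and Kcna1 are Shaker-type Kv genes. Kcna6 rose from 3.48 to 7.12 CPM across the immature libraries to 54.3 to 62.1 CPM across the mature ones (log2 fold change 3.62 ± 0.12, SE). Kcna1 was low in all neurons, with 1.70, 1.16, 0 and 0.648 CPM in immature and 11.9, 11.2, 9.38 and 8.78 CPM in mature libraries (3.85 ± 0.46, SE). Cyp2g1 barcodes carried Kcna1 more often than mature neurons did, 26.7% against 7.40%, and 5.07% against 2.05% after thinning. Kcnq1, whose product carries slow potassium currents in heart and secretory epithelia, went from 2.17 ± 0.21 to 15.7 ± 1.32 CPM (SD, n = 4). These 3 rises passed the edgeR test with adjusted p of 2.44e-12, 3.66e-06 and 2.74e-07.

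The Kv genes that fell included the ether-a-go-go relatives Kcnh7 and Kcnh8, the M-current gene Kcnq3, and Kcnb2 and Kcna3. Kcnh7 had 53.1, 62.5, 48.0 and 50.1 CPM in immature and 12.6, 12.8, 12.2 and 11.6 CPM in mature neurons. Kcnq3 had 7.83 to 12.3 CPM in immature and 0.588 to 0.878 CPM in mature libraries, with an adjusted p of 4.49e-08 in edgeR. No immature value of Kcnh7 or Kcnq3 overlapped a mature one. Kcnh8 fell by 2.32 on the log2 scale, Kcna3 by 2.28 and Kcnb2 by 2.96, with adjusted p of 2.26e-09, 3.96e-06 and 9.57e-09. Kcnq3 UMIs were seen in 0.548% of mature barcodes against 0.758% of Cyp2g1 barcodes, and in 0.161% against 0.0773% after thinning.

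Modifier subunits form no channel on their own and change the gating of Kcnb-type pores. Kcng1 and Kcns3 had the largest rises of all channel genes tested. Kcns3 had 4.59, 3.47, 4.56 and 5.18 CPM in immature neurons and 163, 164, 161 and 165 CPM in mature neurons, a log2 fold change of 5.43 ± 0.12 (SE) with an adjusted p of 4.89e-14 in edgeR. Kcng1 had 2.04, 2.12, 1.74 and 2.81 CPM in immature and 95.7, 80.2, 88.3 and 74.5 CPM in mature neurons (5.52 ± 0.19, SE; adjusted p = 4.66e-12). Kcnb2, a pore of the kind that such subunits join, went down from 14.5 ± 0.94 to 1.60 ± 0.38 CPM. Kcnb2 thus fell while Kcng1 and Kcns3 rose.

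Among Kv accessory genes, 2 of 5 tested were higher and 2 lower. Kcnab2, a cytoplasmic beta subunit of Shaker-type channels, went from 87.5 ± 3.72 to 264 ± 12.2 CPM (SD, n = 4). Kcnip3, a calcium-binding partner of Kv4 channels also known as DREAM, had 11.4, 11.4, 10.2 and 16 CPM in immature and 0.614, 0.494, 0.327 and 0.331 CPM in mature neurons. It had the largest fall of the channel genes, by 4.52 on the log2 scale (SE 0.31), with an adjusted p of 7.98e-09 in edgeR. Kcnd2, which encodes a Kv4 pore, also fell, from 4.06 ± 0.63 to 0.22 ± 0.07 CPM.

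Of 8 calcium- or sodium-activated genes tested, 6 were higher and 2 lower. Kcnma1 encodes the pore of the BK channel, opened by voltage and calcium together, and the Kcnmb genes its beta subunits. Kcnma1 had 39.5 to 46.5 CPM in immature and 173 to 187 CPM in mature libraries, and its log2 fold change was 2.28 ± 0.07 (SE). Kcnmb3 had 23.8, 24.9, 26.1 and 21.4 CPM in immature and 221, 188, 202 and 181 CPM in mature neurons (3.28 ± 0.07, SE; adjusted p = 7.95e-14 in edgeR). Kcnmb2 also rose, by 1.14, whereas Kcnmb4 fell by 1.36. Of the small-conductance channel genes, Kcnn3 fell from 20.4 ± 1.17 to 3.15 ± 0.40 CPM (SD, n = 4), while Kcnn2 rose from 46.5 ± 7.74 to 102 ± 3.14 CPM. Both the beta subunit genes of BK and the Kcnn genes therefore included members that moved each way.

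Inward rectifiers and leak channels set the resting potential. Only 5 genes of each family could be tested. Kcnj2, the classical strong inward rectifier Kir2.1, rose from 9.02, 6.17, 6.52 and 6.91 CPM to 70.8, 64.1, 70.4 and 69.4 CPM (log2 fold change 3.48 ± 0.09, SE; adjusted p = 2.87e-13 in edgeR). Kcnj3, the G-protein-gated GIRK1, fell from 13.3, 12.7, 17.6 and 12.5 CPM to 0.537, 1.12, 0.709 and 0.359 CPM, a fall by 4.13 on the log2 scale (adjusted p = 2.61e-09). The other 3 inward rectifiers tested, Kcnj5, Kcnj13 and Kcnj15, did not pass the threshold and were near 2 to 3 CPM in both classes. Of the leak channel genes, Kcnk10 went from 78.0 ± 2.97 to 37.9 ± 1.09 CPM (SD, n = 4), and Kcnk2 and Kcnk3 were lower as well, while Kcnk12 was higher.

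The Hcn genes encode the pores of the pacemaker current. Hcn2 had 57.5, 52.9, 50 and 53.5 CPM in immature and 311, 315, 293 and 292 CPM in mature neurons (log2 fold change 2.74 ± 0.07, SE; adjusted p = 1.59e-13 in edgeR). Hcn4 went from 15.0 ± 1.39 to 16.1 ± 1.10 CPM (SD, n = 4), a log2 fold change of 0.34 with an adjusted p of 0.0297 in edgeR. Hcn3 fell from 7.14 ± 1.64 to 1.42 ± 0.25 CPM. Hcn2 thus rose in every library while Hcn3 fell. The gene Pklr overlaps Hcn3 on the other strand, and whether counting used strand is not given in the sources used here.

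Of 6 pore-forming sodium channel genes tested, 4 were higher and 2 lower, and both sodium beta genes tested were higher. Scn9a was already high in immature neurons, with 455, 429, 478 and 429 CPM, and had 649, 606, 668 and 609 CPM in mature neurons (log2 fold change 0.73 ± 0.04, SE). Scn8a, which encodes Nav1.6, rose by 1.42 (adjusted p = 8.23e-11 in edgeR). Scn3a, typical of developing brain, was lower in mature neurons, with 26.2 ± 2.80 against 48.3 ± 5.65 CPM (SD, n = 4). The beta subunit gene Scn4b had 14.3, 10.6, 10.4 and 14.5 CPM in immature and 241, 232, 240 and 231 CPM in mature neurons (4.47 ± 0.10, SE; adjusted p = 4.59e-14). Scn3b rose by 1.64, and Scn2b was under 2 CPM in both classes.

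The calcium channel genes split more evenly. Of the pores, 2 were higher (Cacna1d and Cacna1h), 2 lower (Cacna1a and Cacna1e) and 2 did not pass (Cacna1b and Cacna1c). Cacna1e, an R-type pore, had 11.9, 9.07, 9.56 and 9.93 CPM in immature and 0.818, 0.768, 0.764 and 0.663 CPM in mature neurons (adjusted p = 5.87e-09 in edgeR). Cacna1b, the N-type pore, had 50.2 ± 1.76 and 43.3 ± 2.28 CPM (SD, n = 4), with a log2 fold change of 0.02 and an adjusted p of 0.84. Of the beta subunits, Cacnb3 rose by 1.75 and Cacnb2 by 2.20, whereas Cacnb1 fell by 2.13 and Cacnb4 did not pass. Cacng4, which encodes a protein that also binds AMPA receptors, fell by 2.23, from 62.5 ± 6.52 to 11.3 ± 1.38 CPM. Cacna2d1 was level at 229 ± 2.80 and 201 ± 4.29 CPM, a log2 fold change of 0.05 ± 0.03 (SE) that did not pass the threshold.

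Genes of proteins that anchor these channels or maintain the ion gradients were described from a list of 53. Of the 36 tested, 21 were higher and 8 lower in mature neurons by edgeR, with a median log2 fold change of 0.42. These are 58.3% and 22.2%, where 37.3% and 37.7% of all genes were higher and lower with a median of 0.00. The pump gene Atp1b1 rose by 2.35, from 544 ± 13.3 to 2361 ± 50.8 CPM (SD, n = 4). Slc8a1, a sodium-calcium exchanger, rose by 4.21 and Fgf12, which binds sodium channels, by 2.19. Fxyd6, a pump regulator, fell by 4.32, and Dpp10, a Kv4 partner, fell by 4.34. Both Dpp10 and Kcnip3 are partners of the Kv4 pores, whose member Kcnd2 fell with them. Other Kcnd and Kcnip genes did not all do so. Kcnd1 had 10 UMIs in 1820 immature and 167 in 17707 mature barcodes. Kcnip4 had 217 and 1129 UMIs there, and Kcnip2 had 18 and 46. These are counts and not levels, since the mature class held more UMIs of all genes. In female 1 it held 39117463, against 5878449 in the immature class. Relative to the class totals, Kcnd1 was higher in mature neurons, while Kcnip4 and Kcnip2 were lower.

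**Figure D3:**
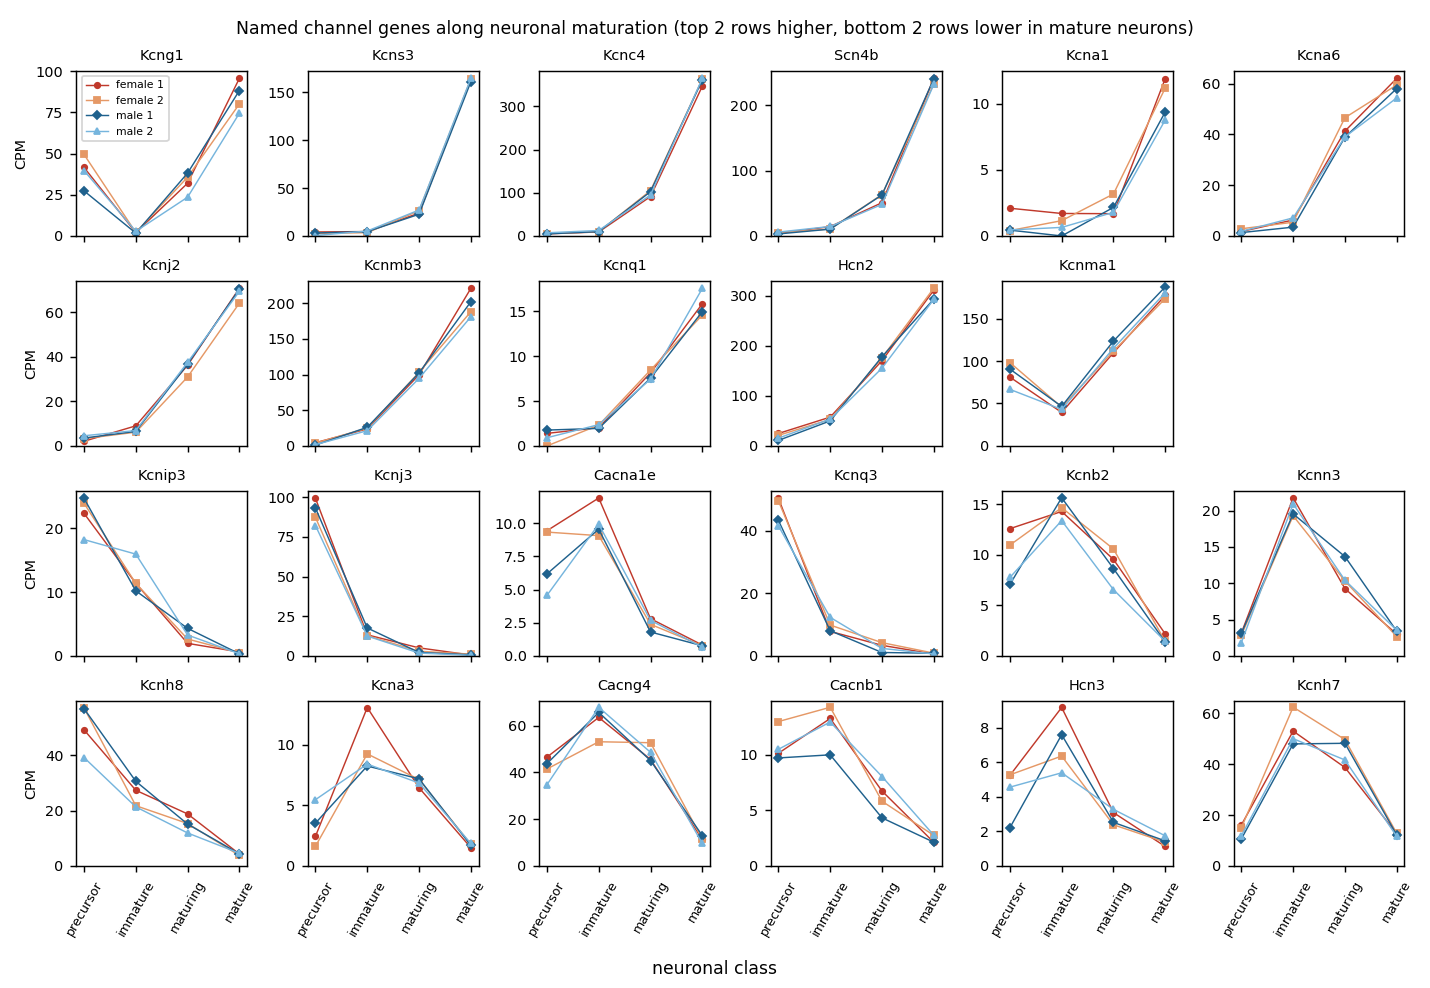
CPM (vertical axis, from 0, scaled for each gene) of 23 of the 24 channel genes with the largest changes in precursors, immature, maturing and mature neurons (horizontal axis). Each line is 1 library, red and orange for females and blue for males. The upper rows rise to the last class, while Kcng1 and Kcnma1 also start above their immature level, and the lower rows fall to it from a peak in precursors or in immature neurons.

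The steps between neighbouring classes placed these changes in order. From precursors to immature neurons 47 of 71 channel genes were higher and 13 lower (edgeR, adjusted p under 0.05), where 36.9% and 36.4% of all genes were. From immature to maturing neurons 39 were higher and 11 lower, where 28.8% and 28.3% of all genes were. From maturing to mature neurons 28 were higher and 21 lower, where 28% and 27.5% of all genes were. The last step thus held the lowest share of higher calls among the channel genes.

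Several channel genes did not move 1 way throughout. Kcng1 had 41.6, 49.5, 27.4 and 39.7 CPM in precursors, fell by 4.25 on the log2 scale to the immature level near 2 CPM, and then rose by 4.02 and 1.5 in the next 2 steps. Its share of barcodes with a UMI was 28.8% in precursors, 1.81% in immature and 39.7% in mature neurons, against 2.24% in the Cyp2g1 class. After thinning the Kcng1 shares were 8.22%, 0.275%, 14.6% and 0.386%. The precursor and mature values of Kcng1 lay above all 4 immature values. Kcnma1 had 84.1 ± 13.6 CPM in precursors and 43.7 ± 3.18 CPM in immature neurons before its rise to 180 ± 5.88 CPM, and Kcnh6 went from 111 ± 15.4 to 40.9 ± 4.25 to 53.5 ± 5.54 CPM (SD, n = 4). Kcnn3, Kcnh7, Kcna3 and Cacng4 peaked in immature neurons, since each rose from precursors and fell to mature neurons. Scn9a rose by 2.72 at the first step, by 0.62 at the second and by 0.11 at the third, with all 3 adjusted p under the threshold.

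Some channel genes were high in precursors alone. Kcns2, a modifier subunit gene, had 57.3, 72.7, 35.8 and 60.7 CPM there and 0.40 ± 0.04 CPM in immature neurons, and fell by 7.16 on the log2 scale at that step (adjusted p = 4.45e-09 in edgeR). Its 557 precursor UMIs came from 245 of 829 barcodes. Kcnj3 had 99.3, 87.3, 93.2 and 82.1 CPM in precursors, above all later classes. Scn11a, a sodium channel of nociceptors, reached 7 ± 0.94 CPM in precursors, from 69 UMIs, and at most 0.95 CPM elsewhere. It lost its call as high in precursors with the limits of the gates doubled.

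Several channel genes that lie side by side in the genome differed in where they were high. Positions are those of GENCODE M21 on GRCm38, and all genes named here are protein-coding. On chromosome 9, Scn11a (119753759 to 119825456, minus strand) was highest in precursors, and its neighbour Scn10a (119608456 to 119719322, minus strand) stayed under 1 CPM in every class. On chromosome 2, Scn9a (66480080 to 66634962, minus strand) had 633 CPM in mature neurons, while its neighbours Scn1a (66270778 to 66440840) and Scn7a (66673425 to 66784914) had 0.03 CPM each. Further along that chromosome, Scn3a (65457118 to 65567627, minus strand) was lower in mature neurons and Scn2a (65620771 to 65767447, plus strand) was higher. On chromosome 3, Kcna3 (107036169 to 107038070, plus strand) fell on maturation while Kcna2 (107101146 to 107115005, plus strand) rose by 1.26. On chromosome 6, Kcna5 (126532551 to 126535412) and Kcna6 (126708329 to 126740674) were highest in mature neurons, and Kcna1 between them (126640397 to 126646384) was highest in Cyp2g1 cells.

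Promoter windows of 250 bases before the transcript start, from RefSeq on GRCm38.p6, were at hand for all but 37 of the 138 channel genes, and for 16 of the 24 genes of largest change. A RefSeq start can lie inside a gene as GENCODE draws it, and 81 of the 137 windows overlapped their GENCODE gene. They were searched for CCCNNGGG, the core of the element bound by Ebf (Olf1) factors, which reads the same on both strands. It occurred in 11.8% of all 32851 windows, in 15.3% of the 137 channel gene windows, in 5 of 34 windows of genes higher in mature neurons (14.7%) and in 6 of 22 windows of genes lower there (27.3%). The median GC content of these windows was 52.4%, 58%, 61.8% and 65.4% in the same order. Of the other letters searched on both strands, TAATTA was in 4.84% of all windows and in none of the channel gene windows, and TATAAA in 12.4% and 3.65%. A match says only that the letters are present. Of the 24 genes of largest change, 6 had a match, of which Kcnc4, Kcnma1 and Hcn2 rose and Kcnip3, Kcnh8 and Kcna3 fell. The windows below have no base in common with their GENCODE gene, which leaves out those of Kcnc4 and Kcnma1, and that of Kcnj3, which fell, is shown as one with no match. They are written 5′ to 3′ along the gene's strand, with every match to CCCNNGGG in capitals; adjoining matches run together. Hcn2 is at chr10:79716384-79716633 (plus strand), Kcnip3 at chr2:127522095-127522344 (minus), Kcnh8 at chr17:52602459-52602708 (plus), Kcna3 at chr3:107035912-107036161 (plus) and Kcnj3 at chr2:55435720-55435969 (plus).
Hcn2: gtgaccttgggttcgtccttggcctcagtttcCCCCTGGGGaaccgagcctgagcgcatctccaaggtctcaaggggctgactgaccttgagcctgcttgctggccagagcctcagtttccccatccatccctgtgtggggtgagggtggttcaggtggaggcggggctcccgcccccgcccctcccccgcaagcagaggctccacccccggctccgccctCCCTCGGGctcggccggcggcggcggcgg
Kcnip3: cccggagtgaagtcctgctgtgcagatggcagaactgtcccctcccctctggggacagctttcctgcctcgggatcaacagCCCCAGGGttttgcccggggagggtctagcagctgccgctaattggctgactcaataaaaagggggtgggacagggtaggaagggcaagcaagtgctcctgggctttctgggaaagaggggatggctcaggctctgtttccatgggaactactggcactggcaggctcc
Kcnh8: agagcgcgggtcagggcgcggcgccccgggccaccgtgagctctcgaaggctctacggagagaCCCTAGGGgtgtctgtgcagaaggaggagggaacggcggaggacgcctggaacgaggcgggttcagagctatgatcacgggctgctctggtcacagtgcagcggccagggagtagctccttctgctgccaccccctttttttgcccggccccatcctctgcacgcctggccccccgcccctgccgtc
Kcna3: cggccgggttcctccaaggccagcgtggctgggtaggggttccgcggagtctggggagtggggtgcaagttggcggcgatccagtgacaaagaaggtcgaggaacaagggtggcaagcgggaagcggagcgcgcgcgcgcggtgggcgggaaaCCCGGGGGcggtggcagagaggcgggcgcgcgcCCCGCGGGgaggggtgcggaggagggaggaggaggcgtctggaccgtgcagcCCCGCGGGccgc
Kcnj3: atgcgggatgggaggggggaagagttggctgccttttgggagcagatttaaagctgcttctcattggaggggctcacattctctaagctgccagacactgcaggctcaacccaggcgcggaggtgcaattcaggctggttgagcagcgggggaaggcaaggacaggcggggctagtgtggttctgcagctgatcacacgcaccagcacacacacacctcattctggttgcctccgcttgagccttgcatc
Hcn2 and Kcna3 each hold 3 matches, Kcnip3 and Kcnh8 hold 1 each.

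The next comparison asked whether channel transcripts differ between mature neurons that transcribe different odorant receptors. An Omp-positive barcode was given the receptor gene that supplied 80% or more of its receptor UMIs, with no fewer than 3, and 58 receptors had at least 10 such barcodes in each library, 5124 barcodes in all. Of 45 channel genes with enough counts, 36 (80%) differed between receptors in an F test of edgeR with the library as a block, where 29.3% of the 9847 genes tested did. Channel genes were summed from 44 to 299 barcodes per receptor. Among the 9 that did not pass were Cacnb4, Scn2a, Kcnh2, Kcna6, Kcnn1, Hcn4, Kcnmb4 and Kcnh8. A gene with few counts has less power in this test, and Kcnc4, the highest Kv gene, passed with an SD of only 0.19 on the log2 scale across receptors.

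**Figure D4:**
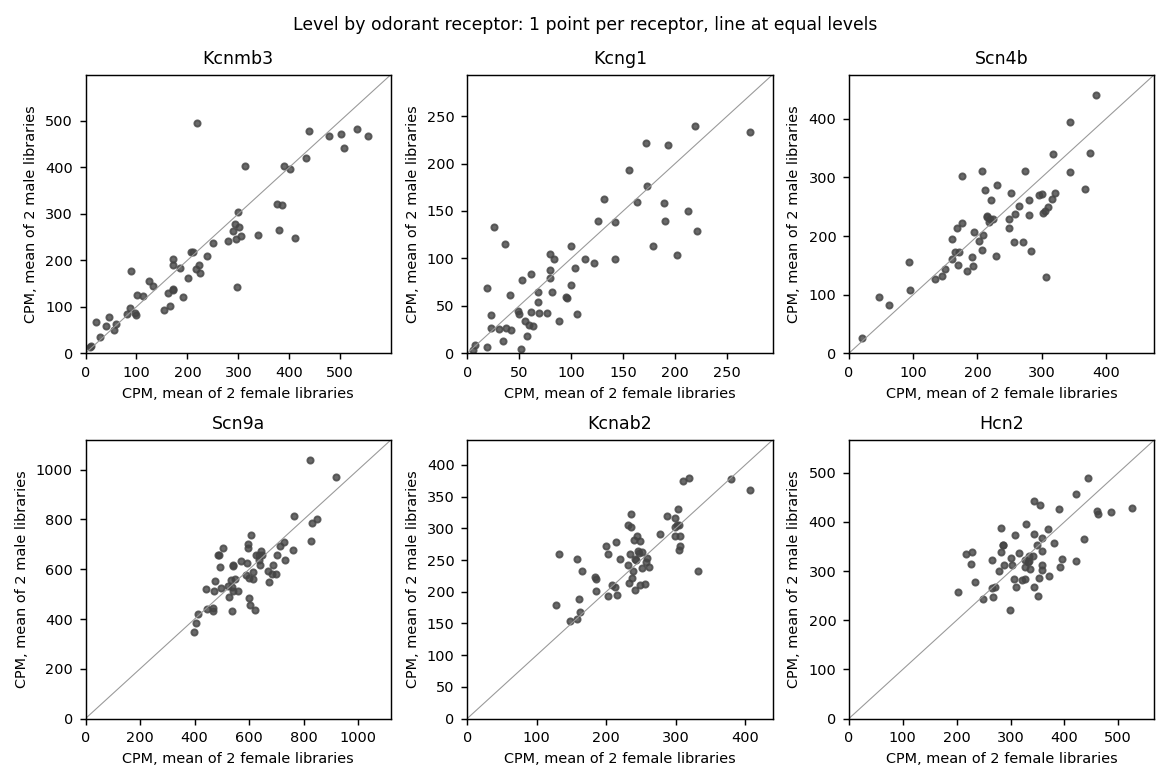
Level of 6 channel genes in neurons of 58 odorant receptors, 1 point per receptor, as the mean CPM of the 2 female libraries (horizontal) against that of the 2 male libraries (vertical). The grey line marks equal levels. Kcnmb3, Kcng1 and Scn4b spread from near 0 along the line, while Scn9a, Kcnab2 and Hcn2 keep to a narrower range.

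Kcnmb3 differed most, with an SD of 1.11 across receptors on the log2 scale (F = 36.6, adjusted p = 4.61e-79 in edgeR). Its level was 12.7, 5.92, 22.0 and 5.97 CPM in neurons of Olfr1507 and 608, 503, 494 and 440 CPM in those of Olfr1415, in the order female 1, female 2, male 1 and male 2. The median over receptors was 202 CPM. Female and male levels of Kcnmb3 correlated across the 58 receptors with r = 0.93, given as a description. In Olfr211 neurons the sexes lay apart, with Kcnmb3 at 235 CPM in female 1 and 202 in female 2 but at 521 in male 1 and 472 in male 2. Olfr211 was chosen here after its Kcnmb3 values were seen, and this difference was not tested.

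Kcng1 ranged from 4.66 CPM in Olfr728 neurons to 253 CPM in Olfr166 neurons (F = 17.3, adjusted p = 2.10e-51 in edgeR). The 4 libraries gave 7.58, 3.51, 4.26 and 3.32 CPM for Olfr728 and 259, 285, 252 and 215 CPM for Olfr166, which did not overlap. Scn4b ranged from 23.1 CPM in Olfr1507 to 412 CPM in Olfr211 neurons (F = 14.1, adjusted p = 1.79e-44). Its libraries gave 23.8, 15.8, 34.9 and 17.9 CPM for Olfr1507 and 446, 324, 528 and 353 CPM for Olfr211. Olfr1507 neurons were thus lowest for Kcnmb3 and Scn4b, and Kcng1 was the second lowest there.

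Scn9a had a narrower range, from 372 CPM in Olfr1346 neurons to 944 CPM in Olfr1110 neurons (F = 9.01, adjusted p = 6.66e-31 in edgeR). Olfr1507 neurons were near the top for Scn9a, with 826 ± 55.2 CPM (SD, n = 4). Next in order of p came Kcnab2, Cacnb3, Kcnmb2, Scn3b, Kcna1 and Hcn2. Kcna1 had no UMI in the neurons of 4 receptors and 40.6 CPM in Olfr1281 neurons. Hcn2 ranged from 230 CPM in Olfr541 to 477 CPM in Olfr1110 neurons, a factor of 2.07.

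Some of these 10 channel genes varied together across receptors and others did not. With 1 gene taken from the females and the other from the males, log2 CPM of Kcnmb3 correlated with that of Scn4b at r = 0.83, of Kcng1 at r = 0.73 and of Scn3b at r = 0.58, and with that of Scn9a at r = -0.48 (58 receptors, described without a test). Kcnmb2 gave r between -0.27 and 0.19 with the other 9, and Kcnab2 gave r = 0.0044 with Hcn2. Genes known to follow neuronal activity gave r of 0.81 for S100a5, 0.88 for Pcp4l1 and 0.70 for Kirrel2 with Kcnmb3, and -0.64 for S100a5 with Scn9a. With Nqo1, which marks neurons of the dorsal zone, the r of these 4 genes lay near 0, from -0.13 for Scn9a to 0.08 for Scn4b. The share of Gap43-positive barcodes of a receptor also moved with these levels, at r = -0.46 for Kcnmb3, -0.53 for Scn4b and 0.50 for Scn9a. Median depth per receptor, between 6675 and 11312.5 UMIs, gave r of 0.18 for Kcnmb3 and -0.39 for Scn9a, and the share of barcodes under 5000 UMIs gave r of -0.10 and 0.49. With Gap43-positive barcodes left out, 36 of 44 channel genes passed, where 29.3% of all 9753 genes did. The part of these measures in the differences was not tested.

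The classes were then compared with each other. A gene was called high in a class when it was higher than in each of 6 other classes at an adjusted p under 0.05 in edgeR, the Gap43 Omp class being left out of these contrasts. Of 83 channel genes tested, 27 (32.5%) were high in mature neurons, where 14.3% of the 13924 genes tested were. The Gap43 class had 8 (9.64%, where 6.18% of all genes were), the Ascl3 class 6 (7.23%, against 3.56%) and the Trpm5 class 5 (6.02%, against 2.43%). The Cyp2g1 class had 6 (7.23%, against 6.28%), a share near that of all genes, and the Neurod1 class with 6 (7.23%, against 11.7%) and the Krt5 class with 2 (2.41%, against 8.11%) lay below it. Of the 60 calls, 17 were lost under at least 1 of 11 alternatives. Kcnc4, Scn4b and Kcna6 stood out most in mature neurons, 18.6-fold, 13.2-fold and 10.5-fold above the next class.

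Sustentacular cells had inward rectifier and leak channel transcripts. Kcnj5, a G-protein-gated inward rectifier gene, had 184, 174, 163 and 149 CPM in the Cyp2g1 class, and Kcnk2, the leak channel TREK-1, had 124, 131, 135 and 153 CPM. Next below were the Ascl3 class with 35.9 ± 26.6 CPM for Kcnj5 and the Krt5 class with 20.4 ± 2.02 CPM for Kcnk2 (SD, n = 4). Kcna1 was high as well, with 25.6 ± 2.15 CPM. Kcnj13, an inward rectifier of transporting epithelia, had 118 ± 6.09 CPM there and 83.6 ± 3.97 CPM in the Krt5 class, against 2.21 ± 0.48 CPM in mature neurons. With DESeq2 its call was lost. Gigyf2 overlaps Kcnj13 on the other strand.

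In horizontal basal cells, the stem cells of the epithelium, Kcnh1 had 123, 127, 139 and 114 CPM in the 4 libraries. Kcnh1 encodes an ether-a-go-go channel studied in dividing cells. The Ascl3 class had 63.5 ± 32.2 CPM and no other class over 1.24 CPM. The log2 fold change of the Krt5 over the Ascl3 class was 1.28 ± 0.25 (SE; adjusted p = 0.00022 in edgeR). Kcnq5, an M-current gene, had 10.6 ± 1.48 CPM in the Krt5 class from 111 UMIs, but its call was lost under 6 alternatives, among them leaving out female 2, male 1 or male 2.

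The Ascl3 class held 27 to 38 barcodes per library. Kcnma1 had 356, 356, 502 and 349 CPM and Kcnk1, the leak channel TWIK-1, had 356, 407, 401 and 395 CPM, and both were seen in 93.4% of the 121 barcodes (59.5% and 57.9% after thinning, against 7.65% and 0.77% of immature neurons). They stood 2.18-fold above mature neurons and 1.98-fold above the Cyp2g1 class. Kcnk5, a pH-sensitive leak channel, and Kcnh2, the channel known as hERG, had 77.3 ± 21.3 and 34.3 ± 9.56 CPM there (SD, n = 4). Kcnk5 lost its call under 5 of 11 alternatives, among them leaving out female 2, male 1 or male 2, and Kcnh2 lost its call with the limits of the gates doubled. Kcnrg, a regulator of Kv assembly, was called from 11 UMIs with 21.4, 3.64, 0 and 18.1 CPM, and its call was lost without female 1 and without male 2. Kcne2, an accessory subunit of epithelial channels, had 35 UMIs there, 18 of them in 1 barcode, and was too sparse for the count filter, so it has no test. The macrophage list summed to between 1392 and 8341 CPM across libraries in the Ascl3 class, all of it from Lyz2 and Cd74, while C1qa and C1qb were at 0 there.

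The Trpm5 class held 24 to 37 barcodes per library. Kcnq1, a Kv channel of the KCNQ family, and the calcium-activated Kcnn4 stood out. Kcnq1 had 75.9, 68.1, 59.9 and 61.3 CPM, and Kcnn4 had 58.4, 80.1, 94.8 and 30.7 CPM. Kcnn4 lost its call without female 2, without male 1 and with barcodes of at least 5000 UMIs alone, and Kcnq1 lost its call with the limits of the gates doubled. Cacnb4 (38 UMIs) lost its call without female 1, and Cacna2d2 (12 UMIs, 1 in each of 12 barcodes) lost its call without female 1, without female 2 and without male 1. Markers of mature neurons summed to between 434 and 1348 CPM across the libraries of this class, and those of sustentacular cells to between 1202 and 5240 CPM. The part of these markers in the Trpm5 class levels was not tested.

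Depth differed between the classes, with medians of 7788 to 8527 UMIs per library in mature and 10212.5 to 11095 UMIs in immature neurons, so mature neurons were split at 5000 UMIs. Barcodes under this limit made up 17.5% to 18.8% of the mature neurons of a library. Channel genes were more often higher than lower in the shallow barcodes. Of 74 channel genes tested with edgeR, 34 were higher in the shallow part, where 27.2% of all genes were, and 6 were lower, where 27.4% were; without male 1 the latter count was 3. All 5 pore-forming sodium channel genes tested were higher in shallow barcodes, among them Scn8a by 0.92 and Scn9a by 0.87 on the log2 scale, and Cacnb2 by 1.23 and Cacna1d by 1.23. Kcnb2, Kcnk1 and Cacng4 were lower, with log2 fold changes of -1.43, -1.15 and -0.85. The genes higher in mature neurons had a median genomic length of 32.2 kb and those lower a median of 110.5 kb, against 23.7 kb for all genes tested. With only barcodes of at least 5000 UMIs in both classes, 36 of 71 channel genes were higher and 23 lower in mature neurons, where 4652 and 4751 of all 12618 genes were.

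**Figure D5:**
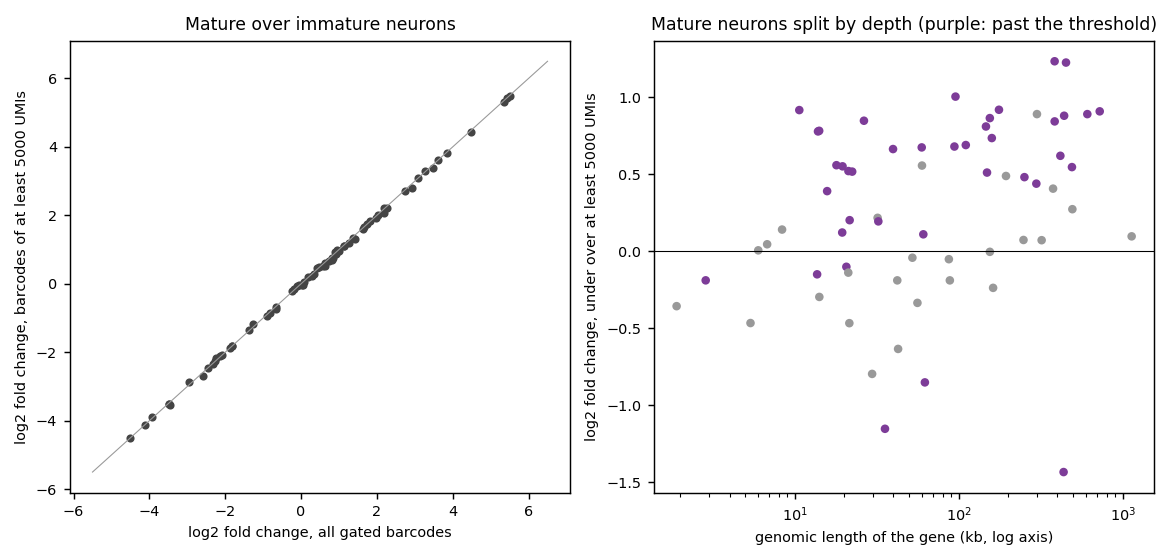
Left, log2 fold change of mature over immature neurons for each channel gene, from all gated barcodes (horizontal) and from barcodes of at least 5000 UMIs (vertical), with a line at equal values. Right, log2 fold change of mature neurons under 5000 UMIs over those at or above it against the genomic length of the gene (log axis). The points on the left keep to the line, and most purple points on the right, which passed the threshold, lie above 0.

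Sex was compared within the 3 largest classes, mature neurons, immature neurons and sustentacular cells, with 2 female and 2 male sums each. No channel gene passed the edgeR test in any of them, among 82, 67 and 74 tested, where 0.00695%, 0.0592% and 0.0367% of all genes were higher in males and 0%, 0.0507% and 0.0513% lower. At an unadjusted p under 0.05 there were 8, 2 and 9 channel genes (9.76%, 2.99% and 12.2%), where 6.07%, 7.55% and 6.62% of all genes were. DESeq2 called 1, 0 and 0 channel genes. Among all genes it called 185 higher and 76 lower of 14394 in mature neurons. In immature neurons it called 35 and 20 of 11834, and in sustentacular cells 39 and 15 of 13633. The channel gene was Cacna1h in mature neurons, with a log2 fold change of 0.13 of male over female. In Cyp2g1 cells, Kcnn4 passed without male 1. The interaction of sex with maturation was past the threshold for 0 of 84 channel genes in edgeR and in DESeq2, with 1 at an unadjusted p under 0.05 in each. Among all 13811 genes edgeR called 0%, and DESeq2 called 12 higher and 7 lower. Kcnc4, for example, differed by 0.07 ± 0.04 (SE) on the log2 scale between male and female mature neurons. In simulated counts for mature neurons the sex test had little power for small changes. It recovered 1.49% of log2 changes of 0.5, 25.4% of changes of 1 and 98.5% of changes of 2. These counts were drawn with 1 common spread for all genes. The shares therefore do not give the power for a single channel gene, whose spread can be smaller or larger.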

How the data were processed

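Counts are UMIs per gene and cell barcode in the deposited filtered matrices. The authors made them with Cell Ranger 6.0.2 per the file headers, whereas the submitters' processing notes name version 5.0.1 and build mm10. The annotation and the use of strand in counting are not given in the sources used here. Barcodes with at least 500 genes and at most 10% mitochondrial UMIs were kept and gated by markers (Omp at 5 UMIs and 1000 CPM, Gap43 and Cyp2g1 at 5 UMIs and 500 CPM, Krt5 at 3 UMIs and 300 CPM, Neurod1, Ascl3 and Trpm5 at 3 UMIs, other markers low). UMIs were summed per class and library and tested with edgeR 4.0.16 (TMM, filterByExpr, quasi-likelihood F test, library as a block except between sexes) in R 4.3.3, with Benjamini-Hochberg adjustment over all genes tested. The receptor test used sums with a mean of at least 1 count and left odorant receptor genes out. DESeq2 1.42.0 was an alternative. Doublets were scored against simulated doublets with scikit-learn 1.9.0. The code was tested on simulated data. CPM divides a sum by its library and class total.

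The channel genes, the gene lists and the tests were chosen with earlier results of these data known. Genes were taken for the text by rule: for maturation, the 12 genes of largest fold change each way among those past the threshold, changed alike in 4 of 4 libraries and at 5 CPM or more; for each class, the 3 of largest fold over the next class; and for receptors, the 10 of lowest p. Some of these genes are not reported here. Other genes were named after their values were seen, to describe each family.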

Additional observations from a re-analysis of the deposited data

Results flagged for a closer look

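Of 62 groups of 4 libraries examined among the named channel genes, 2 held a library that stood far from the other 3, and chance alone gives about 1 in 20. Kcnb2 in the Omp class had 2.17 CPM in female 1, against 1.43, 1.36 and 1.44 CPM in the other libraries. Kcnj3 in the Gap43 class had 17.6 CPM in male 1, against 13.3, 12.7 and 12.5 CPM. Both genes were lower in mature than in immature neurons in all 4 libraries.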

How the results depend on the processing

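Of 176 counts of channel genes under alternatives, 172 stayed within 1.5 times the main count and 4 did not. The number lower in shallow mature neurons was 6 and fell to between 3 and 4 when 1 library was left out. Between the sexes, DESeq2 called 1 gene in the Omp class, and leaving out 1 library gave 0 to 1 in the Cyp2g1 class. All 336 values of the 24 genes of largest change on maturation kept their direction and their side of the threshold. All 109 values of the 10 of lowest p between receptors kept their side of the threshold. The F test between receptors has no direction, and the order of receptors was not compared. Of 713 values of single genes, 48 were marked as moved and 20 lost the call. The 48 were shares of barcodes with a UMI after thinning. They were not compared with the spread between libraries. No result reversed. The cause of the shifts in counts and calls was not tested.

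Whether the replicate numbers in the labels pair the libraries was not settled. Over genes, deviations of same-numbered female and male libraries correlated at 0.00205 in the Omp, 0.0933 in the Gap43 and 0.0899 in the Cyp2g1 class. Counting noise lowers such a correlation, so a low value cannot exclude a pairing. With a replicate block, the sex comparison called 2 channel genes in the Cyp2g1 class (Kcnn4 among them) and 0 in the other 2 classes. Among all genes the block gave 80 higher and 43 lower in the Cyp2g1 class, against 5 and 7 without it. It gave 27 and 34 in the Gap43 class, against 7 and 6, and 1 and 0 in the Omp class either way. Without the library block, maturation gave 38 channel genes higher and 23 lower, where 4501 and 4656 of all 12660 genes were. Receptors gave 36 of 45 without it, where 27.8% of all genes passed.

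An exact permutation test of 2 against 2 libraries cannot go below p = 0.333. The Cyp2g1 limit of 2000 CPM was chosen after seeing the data. The receptor alternative with at least 5 barcodes was not run. The Ascl3 and Trpm5 classes, with 121 barcodes each, limit what can be said of genes with few UMIs.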
